A study of Homo sapiens with 12 samples.

Results

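The 10 genes described here belong to the BCL2 family, and they were taken by symbol from the 19907 gene symbols measured in each library: BCL2, BCL2L1 and MCL1, BAX and BAK1, and BCL2L11, BBC3, PMAIP1, BMF and BIK. All 10 were found in all 12 libraries, and all 10 were among the 18579 genes tested. The libraries came from MDA-MB-231, an established human triple-negative breast cancer line that expresses the glucocorticoid receptor (GR, gene NR3C1). WT-GR was a clone recovered from the CRISPR population that had not been edited, and S134A-GR (clone #1) carried alanine in place of the phosphorylation site Ser134 on both alleles of the endogenous GR gene, together with a silent change of the PAM. Each line was therefore 1 clone, and a difference between the lines cannot be told apart from a difference between any pair of clones. Starvation of both lines lasted 18 h in medium with 1% DCC, a charcoal-stripped serum without steroids, after which the cells received vehicle (Veh) or TGFβ1 at 10 ng/mL for 6 h, with no GR ligand added. Each of the 4 groups held 3 libraries. The labels do not say that replicates were separate cultures, so the p-values measure the spread between these samples, which may be technical.

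BCL2 family proteins decide whether the outer mitochondrial membrane is opened, which releases cytochrome c and starts the caspase cascade. The anti-apoptotic members (BCL2, BCL-XL from BCL2L1, and MCL1) hold the pore-forming members BAX and BAK in check, and the BH3-only members (BIM from BCL2L11, PUMA from BBC3, NOXA from PMAIP1, BMF and BIK) bind the anti-apoptotic proteins and so free the pore formers. BIM is known as a gene induced by TGFβ in several epithelial cell types, and BIM and BMF are known for their part in death upon loss of attachment. The values below are transcripts per gene. They hold neither protein levels nor the splice forms with opposite effects that BCL2L1, MCL1 and BCL2L11 are known to make.

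All values are normalized counts, that is, the reads of a gene divided by the size factor that the authors gave the library. Totals ranged from 56362036 to 129832227 reads per library, so that 3 reads, taken as the limit of detection, correspond to 2.15 to 4.89 normalized counts. Within groups, replicates 1 and 3 of WT-GR under Veh stood farthest apart (chi-square per degree of freedom 43.7, against 8.69 to 22.6 for the other pairs), which touches each comparison that uses that group, and whose part in the results was not tested beyond leaving out each library. NR3C1, the edited gene, was lower in S134A-GR than in WT-GR under Veh (8815 ± 259 against 11771 ± 1186, mean ± SD, n = 3), and counts per gene cannot show the point mutation itself. This is a difference in RNA, whereas the paper reports that total GR protein was equal between its lines by western blot. SMAD7, a known target of TGFβ, rose under TGFβ1 by log2 fold changes of 1.19 in WT-GR and 1.32 in S134A-GR. The mesenchymal markers VIM, CD44 and AXL were abundant in every library, and ESR1 and CDH1 stayed at or under 12.5 normalized counts. Of the other markers listed as low in this line, ERBB2 was detected at 7229 to 10589 and EPCAM at 318 to 1093, with EPCAM lower in S134A-GR (log2 fold change -1.44 under Veh). Of the blood markers PTPRC did not exceed 9.80 and LYZ did not exceed 30.4, while the endothelial markers PECAM1 (746 to 1454) and VWF (161 to 414) were present. Differential expression was tested with limma on log2(normalized count + 1), with p-values adjusted over all genes tested, and a gene was called at an adjusted p under 0.05. In such bulk RNA, fewer cells with a transcript and less of it per cell cannot be told apart.

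Levels can be compared between genes only per length, so normalized counts were divided by the length of the MANE Select transcript in kb. Over all libraries the order was BCL2L1 (10906 per kb), MCL1 (10812), BAX (10143), BAK1 (1675), PMAIP1 (1311), BBC3 (289), BCL2L11 (196), BMF (124), BCL2 (103) and BIK (23.2). The transcripts of BCL-XL, MCL1 and BAX thus stood well above those of the BH3-only members, and BCL2 itself was the lowest anti-apoptotic member. By this length the order was not the same in each group. BCL2L1, BAX and MCL1 came first, in that order, under Veh in both lines, whereas MCL1 was first under TGFβ1 in both, and BCL2 lay below BMF in WT-GR but above it in S134A-GR under both treatments with no overlap. In the order of WT-GR under Veh, neighbours overlapped between libraries only for BBC3 (lowest 261 per kb) and BCL2L11 (highest 265 per kb). Under TGFβ1 in WT-GR the overlapping neighbours were BCL2L1 with BAX and BCL2L11 with BMF, and in S134A-GR BCL2L1 overlapped BAX under both treatments. Dividing by the union of all annotated exons, a length chosen after the values were seen, exchanged only BCL2L1 and MCL1 in the order over all libraries. It put BAX at 3117 per kb, BMF at 107 and BCL2 at 56.5. The orders within groups, including that of BCL2 and BMF, are given for the MANE Select length only and depend on that choice.

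**Figure D1:**
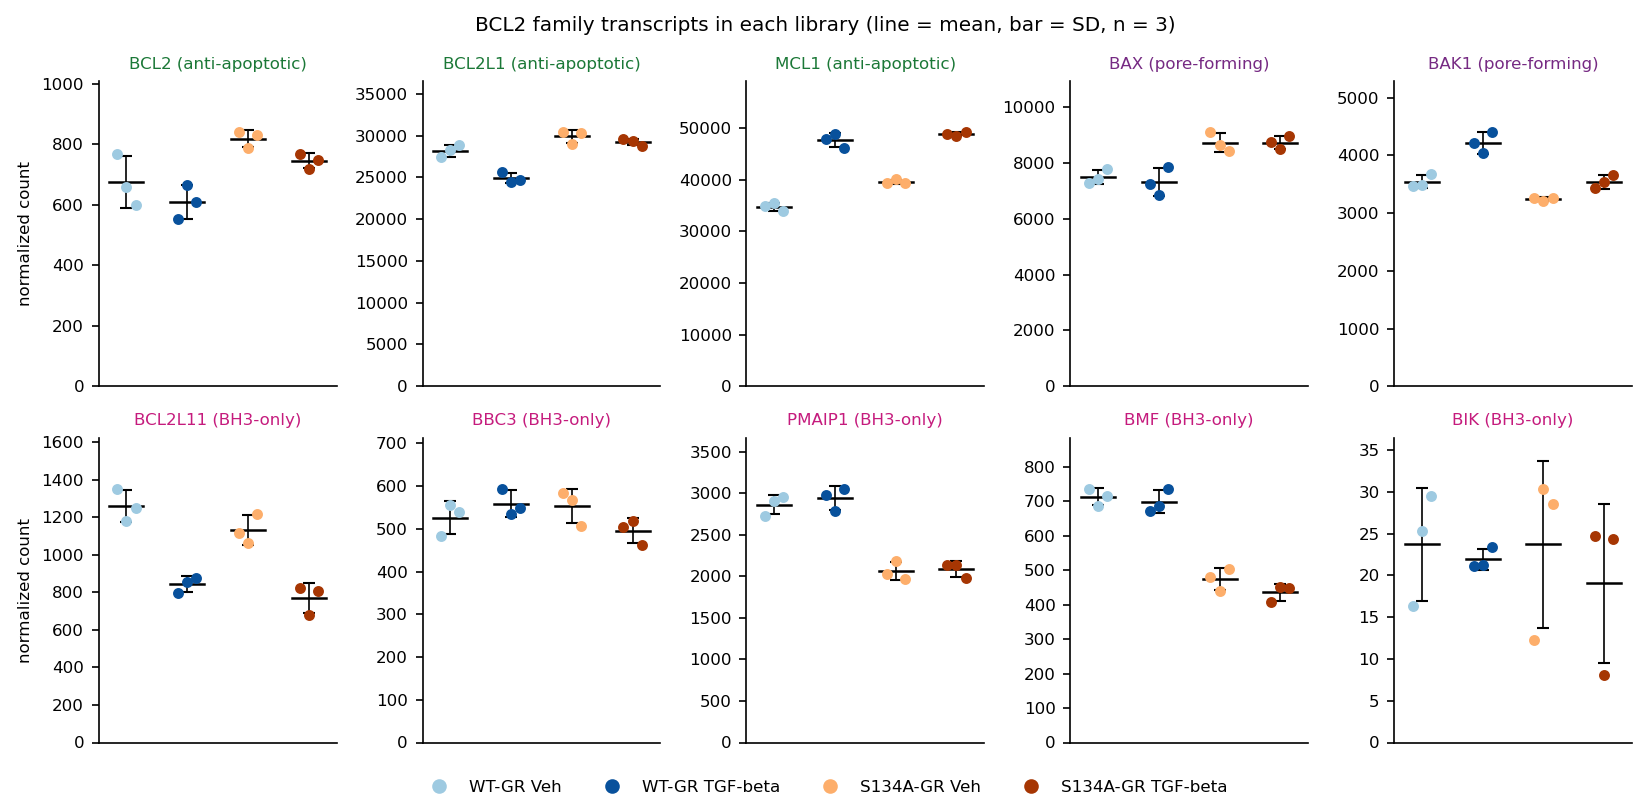
Normalized counts of the 10 genes in each of the 12 libraries, with 1 panel per gene and a vertical axis from 0. Points are libraries, horizontal lines are group means and bars are SD (n = 3): MCL1 was higher and BCL2L11 lower in the TGFβ1 libraries of both lines, while PMAIP1 and BMF were lower in all 6 S134A-GR libraries than in any WT-GR library.

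The first question was whether the 2 lines differed before any TGFβ1 was given. Under Veh, 4 of the 10 genes were higher in S134A-GR (BCL2, BCL2L1, MCL1 and BAX), 3 were lower (BAK1, PMAIP1 and BMF), and BCL2L11, BBC3 and BIK were not called. The 3 anti-apoptotic genes were therefore all higher, by log2 fold changes of 0.086 to 0.29, and the 2 BH3-only genes that were called were both lower, by -0.47 and -0.59. The lines differed widely: of all genes tested, 25% were higher and 26.5% lower in S134A-GR, and among the 10359 genes with a mean of at least 500 normalized counts 66.6% were called in either direction. Calls in 7 of 10 genes are near that share, so the number of calls is not a property of the family. None of the 10 genes changed by a log2 value of 1 in either direction, against 9.51% of all genes that were called at that size, and the median log2 fold change of the family (0.0071) was near that of all genes (0.019).

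Of the anti-apoptotic genes, MCL1 (chr1:150560895-150579738, minus strand, hg38) encodes a short-lived protein that restrains BAK and BIM. It was read at 34928, 35426 and 33963 normalized counts in WT-GR under Veh and at 39361, 40045 and 39274 in S134A-GR. All S134A-GR libraries lay above all WT-GR libraries, with a log2 fold change of 0.19 (SE 0.031, adjusted p = 0.000146). BCL2 (chr18:63123346-63320128, minus strand), the founding anti-apoptotic member, was read at 767, 659 and 598 in WT-GR and at 840, 787 and 829 in S134A-GR. The groups did not overlap, but WT-GR replicate 1, which with replicate 3 formed the least similar pair of libraries, came close to the lowest S134A-GR library, and the log2 fold change was 0.29 (SE 0.092, adjusted p = 0.0182). Without WT-GR Veh replicate 2 or 3 or S134A-GR Veh replicate 1 or 3 the BCL2 call was lost (adjusted p 0.0519 to 0.0841). BCL2L1 (chr20:31664452-31723989, minus strand), which encodes BCL-XL, was read at 27418, 28276 and 28879 in WT-GR and at 30411, 29040 and 30296 in S134A-GR. These groups were separated by less than the range within either of them. The log2 fold change was 0.086 (SE 0.033, adjusted p = 0.0416), and the call was lost with edgeR (adjusted p = 0.0551), DESeq2 (0.0514) and only the 2 groups in the fit (0.0688), as well as without WT-GR Veh replicate 1 or 2, S134A-GR Veh replicate 1 or 3, WT-GR TGFβ1 replicate 3 or S134A-GR TGFβ1 replicate 2 (0.0517 to 0.142).

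The pore-forming genes moved in opposite directions. BAX (chr19:48954815-48961798, plus strand), whose protein moves from the cytosol to the mitochondrion, was read at 7295, 7435 and 7767 in WT-GR under Veh and at 9093, 8632 and 8438 in S134A-GR. All S134A-GR libraries were higher, with a log2 fold change of 0.22 (SE 0.048, adjusted p = 0.00168). BAK1 (chr6:33572547-33580293, minus strand), whose protein resides in the outer mitochondrial membrane, was read at 3462, 3492 and 3682 in WT-GR and at 3256, 3204 and 3265 in S134A-GR. All S134A-GR libraries were lower, and the log2 fold change was -0.13 (SE 0.043, adjusted p = 0.0227). That BAK1 call was lost when libraries were scaled by their total counts (log2 fold change -0.051, adjusted p = 0.381) and without WT-GR Veh replicate 3 or S134A-GR Veh replicate 1 or 2 (adjusted p 0.051 to 0.0837).

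Among the BH3-only genes, PMAIP1 and BMF carried the largest differences of the family between the lines. PMAIP1 (chr18:59899996-59904305, plus strand) encodes NOXA, a p53 target that binds MCL1. It was read at 2733, 2915 and 2952 in WT-GR under Veh and at 2028, 2191 and 1975 in S134A-GR. The S134A-GR level was 0.72 times that of WT-GR, with no overlap (log2 fold change -0.47, SE 0.056, adjusted p = 6.35e-06). BMF (chr15:40087890-40108892, minus strand), whose protein is held on the actin cytoskeleton through dynein light chain DYNLL2, was read at 736, 687 and 715 in WT-GR and at 480, 439 and 503 in S134A-GR. The S134A-GR level was 0.665 times that of WT-GR, again with no overlap (log2 fold change -0.59, SE 0.078, adjusted p = 1.98e-05). Both calls held under every alternative test, filter and scaling and without any 1 library.

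BCL2L11 (chr2:111119378-111168444, plus strand), BBC3 (chr19:47220822-47232766, minus strand) and BIK (chr22:43110750-43129712, plus strand) were not called between the lines. BCL2L11 was read at 1352, 1181 and 1247 in WT-GR under Veh and at 1115, 1064 and 1219 in S134A-GR, which overlap (log2 fold change -0.15, 95% interval -0.33 to 0.027). BBC3, which encodes the p53 target PUMA, was read at 482, 555 and 540 in WT-GR and at 583, 569 and 508 in S134A-GR, which also overlap (0.074, 95% interval -0.11 to 0.26). BIK, whose protein resides in the endoplasmic reticulum, rested on at most 34 reads per library and on 8.10 to 30.4 normalized counts, and its interval of -0.997 to 0.878 shows that a change as large as any in the family was not detectable at this depth.

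**Figure D2:**
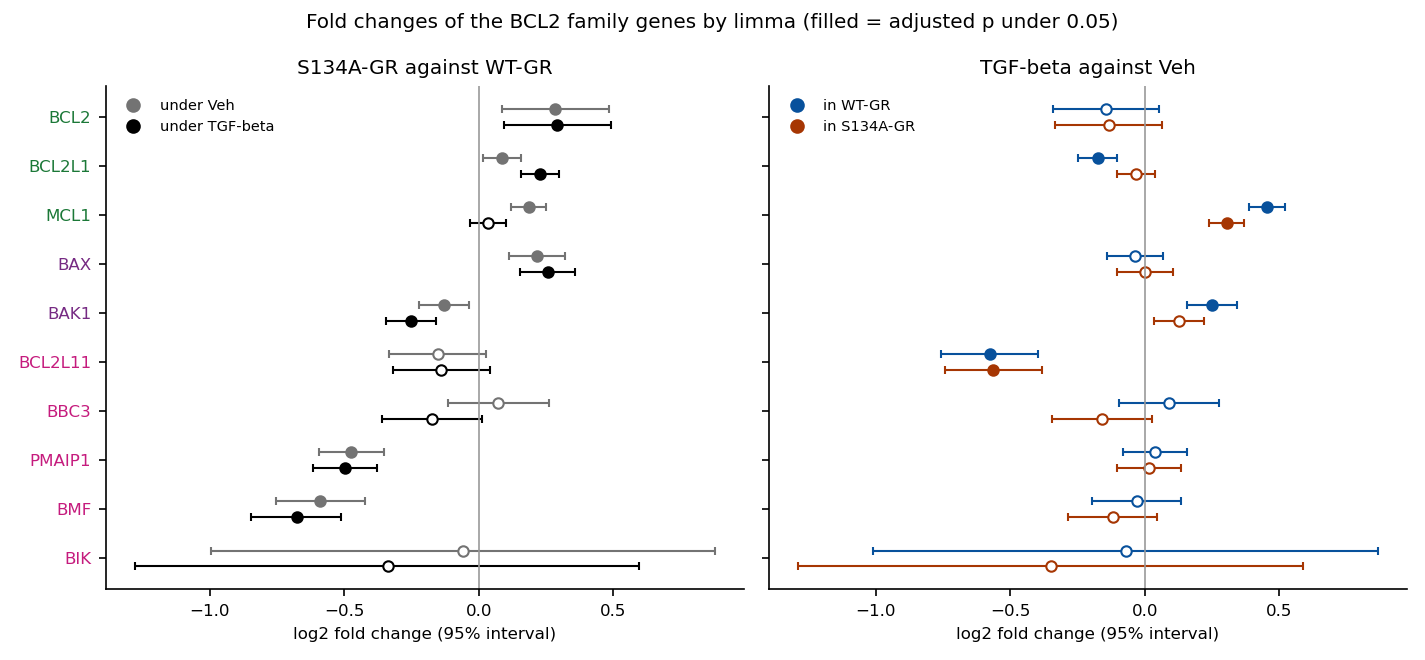
Log2 fold changes of the 10 genes for S134A-GR against WT-GR (left, under Veh and under TGFβ1) and for TGFβ1 against Veh (right, in each line), with unadjusted 95% intervals; filled points had an adjusted p under 0.05. PMAIP1 and BMF lie left of 0 in both comparisons of the lines, BCL2L11 lies left and MCL1 right of 0 in both TGFβ1 responses, and BIK has by far the widest intervals.

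The promoters of the 3 genes with the largest differences, PMAIP1 and BMF between the lines and BCL2L11 under TGFβ1, are shown as the 250 bases before the RefSeq start on GRCh38.p14, so that the letters shared or not shared by them can be read beside their values. Of the 10 genes, 8 were found in the RefSeq promoter table, and MCL1 and BIK were not. Capitals mark the GC box GGGCGG (found in 42.6% of 35116 promoters of the same length), the CAAT box CCAAT (32.0%) and the SMAD element CAGAC (38.0%), each read on both strands, so that a run of capitals may be the reverse complement of its motif. The PMAIP1 stretch is chr18:59899746-59899995 (plus strand), that of BMF is chr15:40108880-40109129 (minus strand) and that of BCL2L11 is chr2:111120664-111120913 (plus strand).
PMAIP1: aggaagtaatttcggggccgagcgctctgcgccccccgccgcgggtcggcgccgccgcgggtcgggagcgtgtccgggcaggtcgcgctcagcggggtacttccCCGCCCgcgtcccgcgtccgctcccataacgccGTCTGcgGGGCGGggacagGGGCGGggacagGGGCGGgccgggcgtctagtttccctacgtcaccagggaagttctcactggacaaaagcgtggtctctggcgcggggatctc
BMF: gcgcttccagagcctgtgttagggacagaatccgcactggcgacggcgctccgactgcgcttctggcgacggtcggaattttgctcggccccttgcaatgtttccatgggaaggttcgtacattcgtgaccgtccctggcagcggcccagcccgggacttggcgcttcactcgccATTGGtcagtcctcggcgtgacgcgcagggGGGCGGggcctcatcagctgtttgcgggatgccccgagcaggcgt
BCL2L11: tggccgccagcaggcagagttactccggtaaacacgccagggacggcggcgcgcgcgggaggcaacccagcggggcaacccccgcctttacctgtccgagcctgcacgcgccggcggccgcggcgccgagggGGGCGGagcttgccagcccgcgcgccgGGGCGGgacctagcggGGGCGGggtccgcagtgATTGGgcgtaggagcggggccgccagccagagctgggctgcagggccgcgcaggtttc

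The PMAIP1 stretch held 4 GC boxes and 1 SMAD element, the BMF stretch 1 GC box and 1 CAAT box, and the BCL2L11 stretch 3 GC boxes and 1 CAAT box. The AP-1 site TGANTCA (6.57% of all promoters) and the cyclic AMP response element TGACGTCA (1.65%) were not among the letters of these windows, and neither was the palindromic glucocorticoid response element, which only 1 of the 35116 promoters held. At 65.2% to 76.8% G or C these windows were rich in both bases. The table holds a second BMF start, not printed, whose 250 bases (chr15:40106967-40107216, minus strand) held 1 SMAD element and neither a GC box nor a CAAT box. The GC box, the CAAT box and the SMAD element are short and common. The glucocorticoid response element is so rare in such windows that its absence here carries no information. A match, or the lack of one, is a description of letters only.

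Under TGFβ1 the comparison of the lines was repeated in other libraries, with 3 genes higher in S134A-GR (BCL2, BCL2L1 and BAX), 3 lower (BAK1, PMAIP1 and BMF) and 4 not called. Of all genes, 23.1% were higher and 25.7% lower, 8.46% were called with a change of at least 1 on the log2 scale, and 63.9% of those with a mean of at least 500 were called. The share of the family was again near that of genes of like level, and the medians were -0.16 for the family and 0.012 for all genes. BMF was read at 672, 686 and 735 in WT-GR and at 408, 452 and 448 in S134A-GR, the largest difference of the family (log2 fold change -0.68, SE 0.078, adjusted p = 5.68e-06). PMAIP1 was read at 2985, 2789 and 3059 in WT-GR and at 2142, 2140 and 1977 in S134A-GR (log2 fold change -0.50, adjusted p = 4.55e-06). No library of one line reached the levels of the other for either gene.

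BCL2L1 was read under TGFβ1 at 25651, 24480 and 24725 in WT-GR and at 29567, 29334 and 28802 in S134A-GR (log2 fold change 0.23, SE 0.033, adjusted p = 4.73e-05). BAX was read at 7240, 6852 and 7845 in WT-GR and at 8728, 8493 and 8943 in S134A-GR (0.26, adjusted p = 0.000519). BAK1 was read at 4209, 4033 and 4400 in WT-GR and at 3427, 3531 and 3662 in S134A-GR (-0.25, adjusted p = 0.000245). In each of these genes the lines did not overlap. BCL2 was read at 554, 666 and 608 in WT-GR and at 768, 719 and 748 in S134A-GR (0.29, adjusted p = 0.0166), a call that was lost without WT-GR TGFβ1 replicate 1 (0.23, adjusted p = 0.0802). MCL1, higher in S134A-GR under Veh, was read under TGFβ1 at 47961, 48839 and 46189 in WT-GR and at 48776, 48516 and 49187 in S134A-GR. These overlapped, and the log2 fold change of 0.035 (95% interval -0.031 to 0.10) was not called, although it was called under total-count scaling (0.11, adjusted p = 0.00894).

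Since each line is 1 clone, the differences were also set beside those of the chromosomal neighbours of each gene, the 25 tested genes with a mean of at least 50 on either side. For PMAIP1 the median log2 fold change of its 50 neighbours under Veh was 0.0036, and 4 of the 50 were lower than PMAIP1. For BMF the median of the neighbours was -0.0011, and 2 of the 50 were lower than BMF. Most genes in these windows, which spanned 29.1 Mb for PMAIP1 and 8.56 Mb for BMF, thus did not share the differences. BCL2 (0.29) also differed from the median of its window (0.012). That window spanned 28.9 Mb and overlapped the window of PMAIP1 on chromosome 18. Medians over windows this wide cannot show whether the nearest genes shared a difference. The values of MCL1 (0.19) and BAX (0.22) were close to the medians of their neighbours (0.14 and 0.16). These medians are descriptions, and the copy number of the lines was not measured here.

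**Figure D3:**
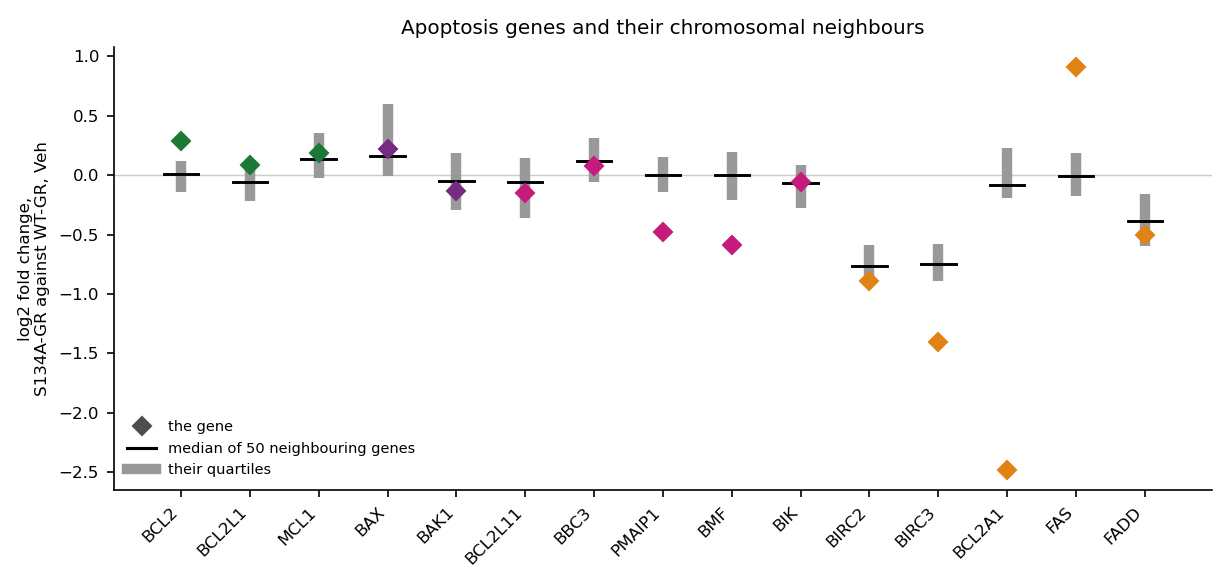
Log2 fold changes of S134A-GR against WT-GR under Veh for the 10 BCL2 family genes and 5 other apoptosis genes (diamonds), beside the median (line) and quartiles (bar) of the 50 tested genes nearest to each. PMAIP1, BMF, BCL2, BIRC3, BCL2A1 and FAS lie outside the quartiles of their neighbours, whereas BIRC2 and FADD lie inside quartiles that are themselves below 0.

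The second question was how TGFβ1 changed these genes after 6 h. In WT-GR, MCL1 and BAK1 rose, BCL2L11 and BCL2L1 fell, and the other 6 genes were not called. The largest change was the fall of BCL2L11, to 0.67 times its level under Veh, and the next was the rise of MCL1, to 1.37 times. Of all genes, 11.2% rose and 9.82% fell in WT-GR, 2.29% were called with a log2 change of 1 or more in size, and 30.8% of the genes with a mean of at least 500 were called, beside 4 of the 10 family members. In S134A-GR, MCL1 rose and BCL2L11 fell, and the other 8 genes were not called. Of all genes, 10% rose and 8.69% fell in S134A-GR, 1.66% changed by at least 1, and 27.6% of the genes with a mean of at least 500 were called, beside 2 of 10 members. The median log2 fold changes of the family were -0.035 and -0.077 in the 2 lines, against -0.0046 and -0.0097 over all genes. Both responses and the comparisons of the lines share libraries, so they are not independent of each other.

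BCL2L11 encodes BIM, the BH3-only protein that binds all of the anti-apoptotic members. Its level in WT-GR went from 1352, 1181 and 1247 under Veh to 798, 855 and 878 under TGFβ1, with all treated libraries below all untreated ones (log2 fold change -0.58, SE 0.084, adjusted p = 0.000184). In S134A-GR it went from 1115, 1064 and 1219 to 822, 677 and 805, again with no overlap (-0.56, SE 0.084, adjusted p = 0.000267). The fall was of nearly equal size in the lines, and the difference between the responses was 0.014 with a 95% interval of -0.24 to 0.27. The neighbours of BCL2L11 had a median log2 fold change of 0.0087 under TGFβ1 in WT-GR, and 3 of the 50 were lower than BCL2L11.

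MCL1 went in WT-GR from 34928, 35426 and 33963 to 47961, 48839 and 46189 (log2 fold change 0.46, SE 0.031, adjusted p = 9.4e-08). In S134A-GR it went from 39361, 40045 and 39274 to 48776, 48516 and 49187 (0.30, SE 0.031, adjusted p = 6.87e-06). All treated libraries were above all untreated ones in both lines, and the S134A-GR response began from a higher level and ended at about the same one. The difference between the responses was -0.15 (95% interval -0.24 to -0.058, unadjusted p = 0.00376), which did not pass adjustment over all genes (adjusted p = 0.255). With DESeq2 its adjusted p was 0.0749 and with edgeR 0.236.

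BCL2L1 fell in WT-GR from a mean of 28191 ± 734 to 24952 ± 618 (log2 fold change -0.18, SE 0.033, adjusted p = 0.00143), with no overlap. In S134A-GR the means were 29916 ± 761 and 29234 ± 392, which overlapped (-0.033, 95% interval -0.10 to 0.038). The difference between the responses was 0.14 (95% interval 0.043 to 0.24, unadjusted p = 0.00829, adjusted p = 0.34), so that a difference between the lines was not established by the test over all genes. Under total-count scaling BCL2L1 also fell in S134A-GR (-0.10, adjusted p = 0.0437).

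BAK1 rose in WT-GR from 3546 ± 119 to 4214 ± 183 (log2 fold change 0.25, SE 0.043, adjusted p = 0.000858). In S134A-GR it was 3242 ± 32.7 under Veh and 3540 ± 118 under TGFβ1, with no overlap, and the log2 fold change of 0.13 (95% interval 0.033 to 0.22) narrowly missed the threshold (adjusted p = 0.0584). It passed with DESeq2 (0.0306), with only the 2 groups in the fit (0.0473), without WT-GR Veh replicate 3 (0.0441) and without S134A-GR TGFβ1 replicate 1 (0.0483). The difference between the responses was -0.12 (95% interval -0.25 to 0.0096).

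The genes that differed most between the lines were not called under TGFβ1. PMAIP1 had log2 fold changes of 0.038 (95% interval -0.081 to 0.16) in WT-GR and 0.016 (-0.10 to 0.14) in S134A-GR, and BMF had -0.031 (-0.20 to 0.14) and -0.12 (-0.29 to 0.047). BAX, at -0.038 (-0.14 to 0.066) in WT-GR and 0.00043 (-0.10 to 0.10) in S134A-GR, was not called in either line, and its libraries overlapped in both. BCL2 had -0.14 (-0.34 to 0.054) and -0.14 (-0.33 to 0.062), and its libraries overlapped in WT-GR but not in S134A-GR. BBC3 was read at 594, 534 and 549 under TGFβ1 in WT-GR and at 505, 518 and 462 in S134A-GR, with log2 fold changes of opposite sign (0.090 and -0.16) whose intervals both held 0. Between the lines these TGFβ1 libraries did not overlap, but the log2 fold change of -0.175 (95% interval -0.361 to 0.0113) was not called.

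No gene of the family was called for the difference between the TGFβ1 responses by limma, edgeR or DESeq2, and 2 of the 10, MCL1 and BCL2L1, had an unadjusted p under 0.05 in limma. Over all genes 0.167% were called with a higher and 0.248% with a lower response in S134A-GR, 0.0592% with a difference of 1 or more in size, and 0.637% of those with a mean of at least 500. The intervals bound the difference within a log2 value of 0.27 on either side for BCL2L11 and 0.19 for BAX and PMAIP1, but they do not show the responses to be equal.

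**Figure D4:**
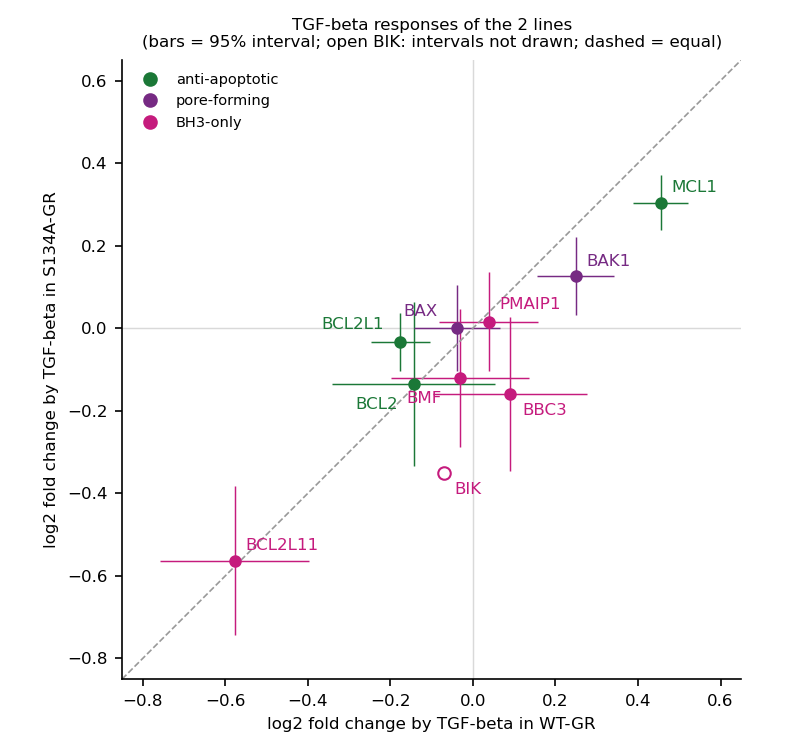
Log2 fold changes by TGFβ1 in WT-GR (horizontal) and S134A-GR (vertical) of the 10 genes, with unadjusted 95% intervals except for BIK, whose intervals are wider than the axes, and a dashed line of equal response. BCL2L11 lies on the line, and MCL1 (0.46 against 0.30) and BCL2L1 (-0.18 against -0.033) lie off it by less than passed the adjusted test.

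Ratios within a library do not depend on its size factor. The log2 ratio of BCL2L11 to MCL1 normalized counts was -4.79 ± 0.11 in WT-GR under Veh and -5.82 ± 0.097 under TGFβ1, and -5.13 ± 0.11 and -5.99 ± 0.15 in S134A-GR (SD, n = 3). It was thus lower under TGFβ1 by more than the spread in both lines, since the numerator fell and the denominator rose. The ratio of PMAIP1 to MCL1, a pair whose proteins bind each other, was -3.60 ± 0.076 and -4.02 ± 0.11 in WT-GR and -4.26 ± 0.062 and -4.55 ± 0.076 in S134A-GR. The highest S134A-GR library under Veh was lower than every WT-GR library. By contrast, the ratio of BAX to BCL2 (3.48 ± 0.23 in WT-GR and 3.41 in S134A-GR under Veh) differed by only -0.067 between the lines, as both genes were higher in S134A-GR. No test was run on these ratios, which join genes already compared.

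The rest of the apoptosis pathway was taken from a list of 54 genes, all measured and 53 tested. Under Veh 11 were higher and 23 lower in S134A-GR and 19 were not called, and under TGFβ1 12 were higher, 18 lower and 23 not called. Beside the 66.6% and 63.9% of all genes with a mean of at least 500 that were called, 34 and 30 calls among 53 genes are not above the background. The medians of the list were -0.058 and -0.056, against 0.019 and 0.012 over all genes. Under total-count scaling the split was 15 higher and 14 lower under Veh and 18 and 14 under TGFβ1. That scaling also moved the share of higher calls among all called genes, from 48.6% to 59.7% under Veh and from 47.4% to 59% under TGFβ1. The raw splits thus depend on the scaling, and whether the list departs from all genes in direction was not tested. Of the other 11 BCL2 family members 10 were tested. BCL2A1, BID, BAD and BOK were lower in S134A-GR under both treatments and none was higher. Over all genes 25% were higher and 26.5% lower under Veh, and 23.1% and 25.7% under TGFβ1, so counts in so few genes show no trend of the family. BCL2A1, an anti-apoptotic relative known as a target of NF-kB, was read at 225, 263 and 276 in WT-GR under Veh and at 39.6, 49.7 and 45.4 in S134A-GR. This was the largest difference on the list (log2 fold change -2.48, SE 0.16, adjusted p = 1.62e-08), opposite in direction to BCL2, BCL2L1 and MCL1, and its neighbours had a median of -0.082. BID, the BH3-only protein that links caspase-8 to the mitochondrion, had log2 fold changes of -0.38 under Veh and -0.40 under TGFβ1. BAD, the BH3-only protein controlled by phosphorylation, had -0.37 and -0.47. BOK, a relative of BAX and BAK, had -0.16 and -0.22, and its call under Veh was lost under total-count scaling (-0.078, adjusted p = 0.181) and without S134A-GR Veh replicate 3 (-0.13, adjusted p = 0.0521). BCL2L2, BCL2L12 and BCL2L13 were not called in any comparison, HRK, BCL2L14 and BCL2L15 did not exceed 23.4 normalized counts in any library, and BCL2L10 had at most 2 reads and was not tested.

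Of the 6 inhibitors of apoptosis, 3 were lower and 1 higher in S134A-GR under Veh, and the largest differences were in BIRC3 and BIRC2 (cIAP2 and cIAP1), both lower. BIRC5 (survivin) and BIRC6, a ubiquitin ligase of the family, fell outside the naming rule, and their values were known when they were picked. BIRC6 was at 16051, 10795 and 8358 in WT-GR and at 8125, 8185 and 8952 in S134A-GR under Veh (-0.43, adjusted p = 0.0353). Its groups overlapped, and its call was lost with total-count scaling (adjusted p = 0.0739), with only the 2 groups in the fit (0.13) and without WT-GR replicate 1 (-0.17, 0.128), WT-GR replicate 2 (0.056), S134A-GR replicate 1 (0.092) or S134A-GR replicate 2 (0.086), while without WT-GR replicate 3 the value was -0.65. BIRC5 was higher at 15793 ± 75.2 against 14450 ± 543 (0.13, adjusted p = 0.00796), or by 0.21 with total-count scaling. Neither was called under TGFβ1. BIRC3 was read at 722, 680 and 866 in WT-GR and at 292, 279 and 283 in S134A-GR under Veh (log2 fold change -1.40, adjusted p = 1.51e-07). BIRC2 was at 7011 ± 26.4 and 3779 ± 122 (-0.89, adjusted p = 6.01e-10). The pair lies side by side on chromosome 11, and the 50 neighbours of BIRC2 had a median of -0.76, so this region was lower as a whole. BIRC2 was near that median, and 13 of the 50 were lower than BIRC2. BIRC3 lay well below its own neighbours under Veh (median -0.75), and 2 of the 50 were lower than BIRC3. Under TGFβ1 BIRC3 (-0.82) was closer to its neighbours (median -0.70), and 12 of the 50 were lower. FADD, the adaptor of death receptors, also lay among lower neighbours (-0.51 against a median of -0.39). FAS, a death receptor, was higher in S134A-GR at 269 ± 26.7 against 142 ± 11.9 (0.91, adjusted p = 5.43e-05), while its neighbours had a median of -0.0090. ENDOG, a mitochondrial nuclease, was higher at 524 ± 42.5 against 231 ± 31.3 (1.18, adjusted p = 3.83e-06), and TP73, a relative of p53, at 183 ± 5.29 against 120 ± 3.18 (0.60, adjusted p = 0.00463). BIRC3, BIRC2, FADD, FAS, ENDOG and TP73 were also called in the same direction under TGFβ1, where HUWE1, a ubiquitin ligase that acts on MCL1, was higher too (0.67, adjusted p = 0.0109). The TGFβ1 libraries of HUWE1 lay at 20911 to 21615 in WT-GR and at 29265 to 38592 in S134A-GR, with no overlap. Within WT-GR under Veh, a group outside that comparison, HUWE1 ranged from 17917 to 38705, a spread wider than its difference between the lines under TGFβ1.

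Under TGFβ1, 9 genes of the list rose and 8 fell in WT-GR, and 9 rose and 4 fell in S134A-GR, with medians of 0.033 and -0.0047. These 17 and 13 calls among 53 genes are near the 30.8% and 27.6% of all genes with a mean of at least 500. Under total-count scaling these counts were 6 and 12 in WT-GR and 7 and 10 in S134A-GR. BOK rose in both lines (log2 fold changes 0.30 and 0.23), as BAK1 did in WT-GR. In WT-GR BIRC3 fell by 0.72 on the log2 scale (adjusted p = 0.000307), and in S134A-GR its log2 fold change was -0.14 (95% interval -0.38 to 0.095). The difference between these responses was 0.58 (unadjusted p = 0.0026, adjusted p = 0.218 with limma and 0.228 with edgeR), and it passed with DESeq2 alone (0.0292). BCL2A1 rose in WT-GR (0.54, adjusted p = 0.024), a call that was lost without WT-GR Veh replicate 1 or 2 or WT-GR TGFβ1 replicate 1 or 2 (adjusted p 0.0557 to 0.104). For the difference between the responses limma called 0 of the 53 genes, 6 had an unadjusted p under 0.05, edgeR called 0 and DESeq2 called 1, BIRC3.

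**Figure D5:**
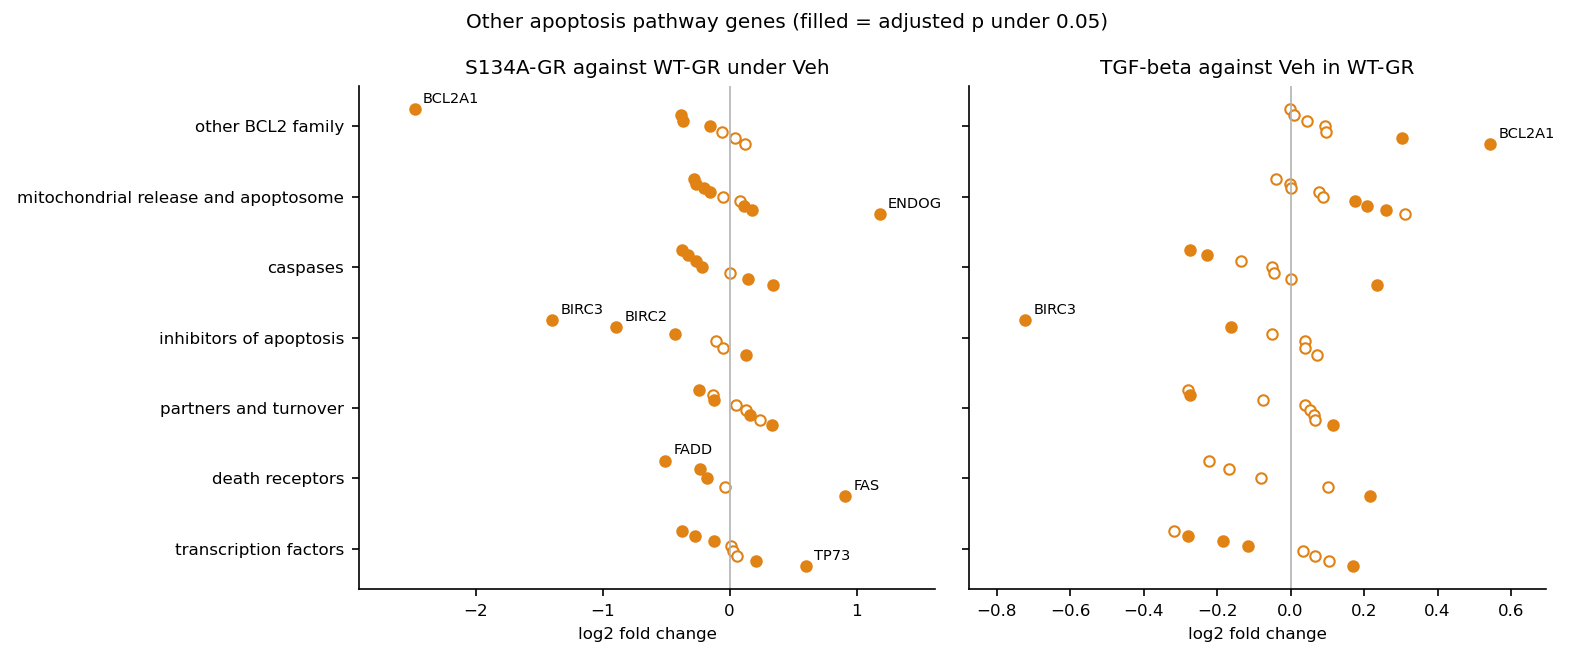
Log2 fold changes of the 50 genes of the wider apoptosis list with a mean of at least 50 normalized counts, by function, for S134A-GR against WT-GR under Veh (left) and TGFβ1 against Veh in WT-GR (right). Filled points had an adjusted p under 0.05, and names mark called changes of at least 0.5 in size: BCL2A1 and BIRC3 lie farthest below 0 on the left and ENDOG and FAS farthest above.

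Several of the genes share exons or sequence with others, and whether reads were counted by strand is not given in the sources used here, so reads from overlapping genes on opposite strands may not be separable. ABALON lies on the other strand of BCL2L1 and held 31.9% of the 75-base stretches of the BCL2L1 transcript; at 1095 to 1414 normalized counts it fell under TGFβ1 in both lines (log2 fold changes -0.18 and -0.25). MIR4435-2HG, on the other strand of BCL2L11, held 13.0% of its stretches, and it rose under TGFβ1 in WT-GR (0.23, adjusted p = 0.0262) where BCL2L11 fell. ADAMTSL4, on the other strand of MCL1, was higher in S134A-GR (1.51 under Veh) but fell under TGFβ1 in both lines, opposite to MCL1. For BAK1, 9.16% of its stretches occurred in GGNBP1 or the pseudogene BAK1P1, and for BMF 6.89% in BMF-AS1. The transcripts of BCL2, MCL1, BAX, BBC3, PMAIP1 and BIK held no stretch found in another annotated transcript.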

How the data were processed

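Total RNA of 12 samples was made into mRNA libraries, which were sequenced as pairs of 75-base reads. The authors used FastQC 0.11.7 and Trimmomatic on the reads, HISAT2 for alignment (hg38), featureCounts of Subread for counting by gene, and DESeq2 1.22.2 for the size factors that the counts were divided by. The deposited values are thus a signal per gene symbol, normalized counts; the annotation, the strand setting and whether pairs were counted as fragments are not given in the sources used here. In each library 100% of values came out as whole reads when divided by the value of 1 read (tolerance 0.01 reads), with size factors of 0.614 to 1.40. Precision is limited by the 56362036 to 129832227 reads counted per library, and the floor of 3 reads and the 95% intervals are for counting error and for replicate spread, respectively. Every one of these totals is above the average number of reads per sample that the paper states. Whether both mates of a pair were counted was not tested, so the number of independent fragments may be smaller than these totals. No pair of replicates agreed within sampling noise (8.69 to 43.7 times the degrees of freedom by chi-square), so each counted as 1 sample.

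Genes with at least 10 reads summed over libraries (18579) were tested on log2(normalized count + 1), which understates changes of low genes, with limma 3.58.1 in R 4.3.3. The 4 group means were fitted in 1 model with empirical Bayes moderation and a trend, contrasts gave the 5 comparisons, and Benjamini-Hochberg adjustment was over all genes tested. On simulated data with the real means and library sizes (S134A-GR against WT-GR under Veh, 18579 genes) the fit called 77% of 100 genes changed by a log2 value of 0.5 and 93% of 100 changed by 1, and 0.0599% of unchanged genes. Only those genes, all with a mean of at least 50, were changed, whereas limma called 9569 genes in the real comparison. These rates may therefore not hold for the data. Changes under 0.5, the size of most changes in the family, were not simulated. Alternatives were edgeR 4.0.16 (quasi-likelihood) and DESeq2 1.42.0 on the recovered reads, pseudocounts of 0.5 and 16, other filters, TMM and total-count scaling, a replicate block, only the groups compared, a fold cutoff, and each library left out.

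The members, the pathway list and the markers were chosen with earlier results of these data known. From the pathway list, genes of the other BCL2 family and up to 8 called genes per comparison of 0.5 or more in log2 size were named; other genes were named as overlapping or neighbouring genes after their values were seen. The bounds of 500 and 50 on the mean, the neighbours, the ratios and the exon lengths were also chosen after seeing the data. Coordinates and transcript lengths are from GENCODE v44 (hg38), promoters from RefSeq (GRCh38.p14). PGR and CD3E were not among the symbols, and 1 listed gene, MARCHF5, was matched by an older symbol.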

Additional observations from a re-analysis of the deposited data

How the results depend on the processing

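Over the 10 genes and 5 comparisons, 1064 of 1090 values under the alternatives kept their side of the threshold, 19 lost a call, 7 gained one and 0 called values reversed, while 37 values that were not called changed sign; BMF and PMAIP1 between the lines and MCL1 and BCL2L11 under TGFβ1 changed no call. Leaving out the libraries singly, the genes called ranged from 4 to 7 under Veh (4 without S134A-GR Veh replicate 1), 5 to 6 under TGFβ1, 4 to 4 for the response of WT-GR, 2 to 3 for that of S134A-GR and 0 to 0 for the difference. In the wider list the ranges were 27 to 37, 26 to 30, 12 to 19, 11 to 17 and 0 to 0. A log2 change of 1 or more in size, required besides the adjusted p, left 0 of the 10 genes in each comparison, and 3, 1, 0 and 0 genes of the wider list for the lines under Veh, the lines under TGFβ1 and the responses of WT-GR and S134A-GR, by the construction of that cutoff. DESeq2 called 1 gene of the wider list (BIRC3) for the difference in response, and the cause was not tested. On the recovered reads of all genes edgeR called 9452, 9106, 3892, 3450 and 78 genes in the 5 comparisons, against 9569, 9070, 3910, 3475 and 77 with limma.

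Total-count scaling moved the share of higher calls among all called genes from 48.6% to 59.7% (lines, Veh), 47.4% to 59% (lines, TGFβ1), 53.4% to 29.9% (WT-GR response) and 53.5% to 27.2% (S134A-GR response). Equal replicate numbers did not pair the libraries (mean r of deviations 0.00083 over 18 pairs and 13315 genes, -0.11 to 0.13). With a replicate block 6, 6, 4, 3 and 0 of the 10 genes were called; the block lost BCL2L1 between the lines under Veh (adjusted p = 0.0581) and gained BAK1 in S134A-GR under TGFβ1 (0.0463). A fit of only the groups compared could not give the difference in response. Depth limited BIK, HRK, BCL2L14 and BCL2L15.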
